A study of Mus musculus with 18 samples.

Results

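The cytosolic ribosomal protein genes are the genes for the proteins of the large (60S) and small (40S) ribosomal subunits. They were taken here as the listed genes whose symbols follow the Rpl, Rps, Rplp or Rpsa naming pattern and whose mean FPKM (fragments counted, divided by transcript length and scaled per library) over the 9 libraries of a table was above 1. Of the 21441 gene symbols listed, 81 followed the pattern. Of these, 77 passed in RAW264.7 macrophages and 78 in liver, and 77 passed in both. Rpl10l, Rpl39l and Rpl3l, 3 symbols for copies named after other ribosomal protein genes, were under the minimum in both tables, with mean FPKM of at most 0.495. Rpl29 was under it in macrophages only, with a mean of 0.646 against 30.5 in liver. Among the members were 43 genes of the 60S subunit in macrophages and 44 in liver, 31 genes of the 40S subunit, and the 3 genes of the ribosomal stalk, Rplp0, Rplp1 and Rplp2.

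The libraries came from a study of moringa isothiocyanate-1 (MIC-1), a compound of the moringa tree, and of lipopolysaccharide (LPS), a bacterial cell wall molecule that macrophages sense. In liver, wild-type C57BL/6 mice received saline (control), LPS at 10 mg/kg by intraperitoneal injection, or LPS after MIC-1 at 80 mg/kg by gavage for 3 days, and the animals were sacrificed 16 h after LPS. The labels give 6 animals per group and 3 libraries per group were used, with no statement of which animals these were. RAW264.7 is a mouse macrophage-like cell line, and its 9 libraries were also 3 control, 3 LPS and 3 LPS+MIC-1. The study's design text gives MIC-1 at 10 µM, while the labels of the cultures repeat the strain and doses of the mice, so the LPS concentration of the sequenced cultures is not given in the sources used here. MIC-1 without LPS was not among the groups, so every MIC-1 library also carried LPS.

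Each ribosome holds a single copy of nearly every ribosomal protein, and cells make these proteins in matched amounts. Many of their mRNAs begin with a 5′ terminal oligopyrimidine (TOP) tract, a C followed by further pyrimidines, through which mTORC1 signalling controls how much of each mRNA is translated. The proteins are imported into the nucleolus and assembled with ribosomal RNA by biogenesis factors. In macrophages LPS induces cytokine and antimicrobial genes, and in liver it induces the acute-phase response, a shift of hepatocyte secretion towards defence proteins that are made in very large amounts.

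The label check gave a clear answer for tissue and an exception for treatment. The 5 macrophage markers summed to between 10900 and 13400 FPKM in the RAW264.7 libraries and 6 hepatocyte markers to between 2.58 and 13.5, whereas hepatocyte markers summed to between 34600 and 81000 FPKM in liver. Ccl5, a chemokine gene that LPS induces, measured 46.7, 101 and 90.4 FPKM in the macrophage controls, at 24673 and 25371 in LPS libraries 1 and 3, and at 115 in the library labelled LPS 2. Over all genes tested, the library labelled LPS 2 lay a root mean square log2 distance of 0.298 from control 2 and 1.21 from both other LPS libraries. The table columns carry no replicate numbers, so libraries are numbered by column order. Macrophage results are given with all 9 libraries and again without the library labelled LPS 2. In liver, control 1 lay apart from controls 2 and 3, LPS 2 from LPS 1 and 3, and LPS+MIC-1 2 from LPS+MIC-1 1 and 3. Sequencing depth, estimated roughly from the steps between low FPKM values, was 14200000 to 18600000 fragments in macrophages, 3860000 to 8980000 in the liver controls and 10600000 to 16500000 in the treated livers.

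Ribosomal protein mRNAs were among the most abundant of both tables. The median member stood at 1340 FPKM in macrophage controls, against 12.1 for all genes tested, and at 351 FPKM in liver controls, against 6.48. In macrophages 53 members exceeded 1000 FPKM and 6 were under 100, whereas in liver 7 exceeded 1000 and 11 were under 100. Highest by mean FPKM in macrophage controls were Rplp1 (4700), a stalk protein, Rpl41 (3828), which encodes one of the smallest proteins of the ribosome, Rpl35 (3405), Rps26 (3402) and Rpl28 (3206). Lowest were Rpl26 (18.5), Rps19 (19.9), Rpl22l1 (35.2), Rpl34 (39.8) and Rpl30 (49.8). In liver controls the highest were Rpl28 (2710), Rpl35 (1894), Rpl38 (1832), Rplp1 (1288) and Rpl36 (1205), and the lowest were Rps19 (3.70), Rpl22l1 (5.89), Rpl34 (8.70), Rps15a (15.9) and Rpl7l1 (16.3). Genes whose proteins are mostly needed in equal numbers therefore had mRNA values spread over more than 2 powers of 10 in FPKM, a measure that depends on which transcript sequences the authors' index assigned to each gene.

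**Figure D1:**
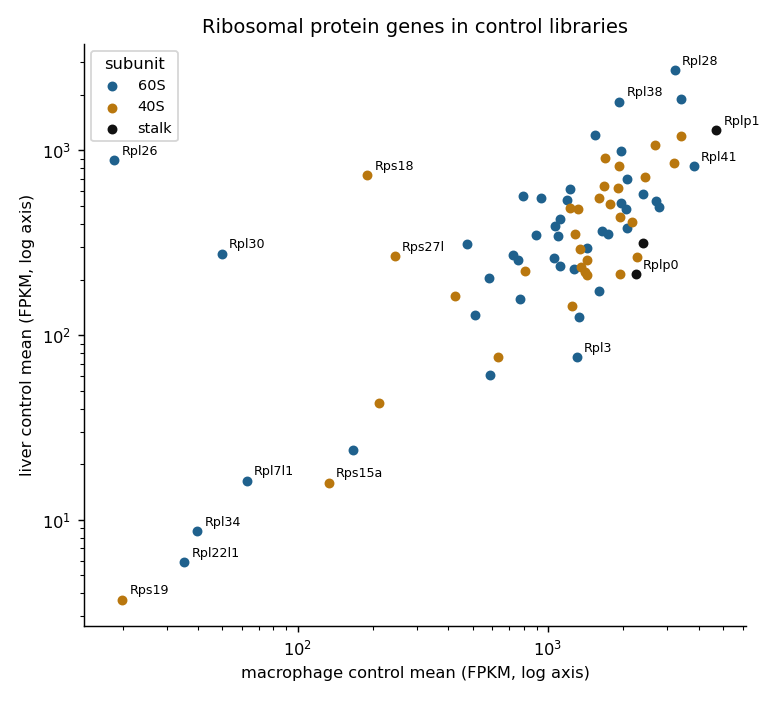
Mean FPKM of each ribosomal protein gene in the 3 control libraries of RAW264.7 macrophages (horizontal axis) and liver (vertical axis), both on log scales, coloured by subunit. Most genes form 1 cloud in which macrophage values are higher, with Rpl26 far above it in liver and Rps19, Rpl22l1 and Rpl34 low in both tables.

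The order of the levels was only partly shared, with a Spearman correlation of 0.62 over 77 genes, given as a description, since the tables were normalized separately and the points share an index and base composition. After subtracting the median difference of all members, Rpl26 stood 7.5 higher on the log2 scale in liver than in macrophages, Rpl30 4.39, Rps18 3.87 and Rps27l 2.05 higher. Rpl3 stood lowest in liver relative to macrophages, at -2.18, followed by Rpl9 and Rplp0 at -1.48 each. Rpl26, a 60S gene (mm9 chr11:68715085-68720491, plus strand), was at 21.0, 17.7 and 16.9 FPKM in the macrophage controls and at 839, 883 and 935 in the liver controls. The liver to macrophage difference fell with coding length, with a Spearman correlation of -0.35 over 76 genes. No test was made across the 2 tables.

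To show what the members share in sequence, the RefSeq start regions (GRCm38.p6, 250 bases before to 50 after the annotated start) of 58 of the 78 members were searched. A TOP-like run, a C at the annotated start followed by at least 4 pyrimidines, was found in 13 of 58 members, 22.4%, against 3.01% of 27025 genes. The letters CCGGAAG, searched on both strands, stood in 24 of 58, 41.4% against 9.93% of genes. AAGATGG stood in 17.2% against 7.28%, and it can overlap the end of CCGGAAG by 3 bases. CACGTG, which reads the same on both strands, stood in 10.3% against 8.09%, and TATAAA in 12.1% against 15.7%. A match describes the letters in this window and nothing about the factor. The start regions below, each 40 bases before and 20 after the annotated start, are of genes that the results return to, 5′ to 3′ on the gene's strand, with the TOP-like run in capitals where there is one.
Rps27 (chr3:90213629-90213688, minus strand): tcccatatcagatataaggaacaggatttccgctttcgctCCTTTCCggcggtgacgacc
Rplp2 (chr7:141447611-141447670, plus strand): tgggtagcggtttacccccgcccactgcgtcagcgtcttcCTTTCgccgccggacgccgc
Rps6 (chr4:86857348-86857407, minus strand): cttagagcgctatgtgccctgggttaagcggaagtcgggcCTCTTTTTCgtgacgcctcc
Rpl35 (chr2:39005112-39005171, minus strand): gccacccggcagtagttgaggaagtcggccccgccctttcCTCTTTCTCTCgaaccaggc
Rpl38 (chr11:114668540-114668599, plus strand): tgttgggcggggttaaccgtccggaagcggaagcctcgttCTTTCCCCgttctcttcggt
Rpl22l1 (chr3:28805468-28805527, plus strand): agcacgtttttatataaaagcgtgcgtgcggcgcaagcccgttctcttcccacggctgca
Rpl7l1 (chr17:46782637-46782696, minus strand): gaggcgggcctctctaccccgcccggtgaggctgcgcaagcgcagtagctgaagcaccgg
Rps27l (chr9:66946046-66946105, plus strand): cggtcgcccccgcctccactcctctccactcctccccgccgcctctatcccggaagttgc
The start regions of Rps27, Rplp2, Rps6, Rpl35 and Rpl38 carry the run, and those of the paralog-type genes Rpl22l1, Rpl7l1 and Rps27l have no such run at the annotated start. Its absence is not particular to paralog-type genes. In all, 45 of the 58 members searched lacked it, among them Rpl22, the partner of Rpl22l1.

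The first question was how much of the transcriptome ribosomal protein mRNA took up. In macrophages the members summed to 19.2, 20.7 and 19.0% of all FPKM in the controls, to 22.1, 20.5 and 23.0% with LPS and to 14.9, 15.1 and 14.8% after LPS+MIC-1. The 3 LPS+MIC-1 libraries lay below every control and LPS library (14.9 ± 0.153% against 19.6 ± 0.929% and 21.9 ± 1.27%, SD, n = 3 each). An exact permutation test of 3 against 3 libraries cannot go below p = 0.1. In liver the share was 5.72, 5.35 and 5.77% in the controls, 5.48, 8.68 and 6.29% with LPS and 5.75, 7.76 and 5.89% after LPS+MIC-1. The liver groups overlapped on this measure, and library 2 was the highest of both treated groups. Taken of the genes tested without the 50 most abundant other genes, the liver share was 10.7, 10.1 and 10.4% in the controls. It was 11.8, 18.4 and 14.1% with LPS and 13.9, 18.0 and 14.4% after LPS+MIC-1, so both treated groups lay above every control there.

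**Figure D2:**
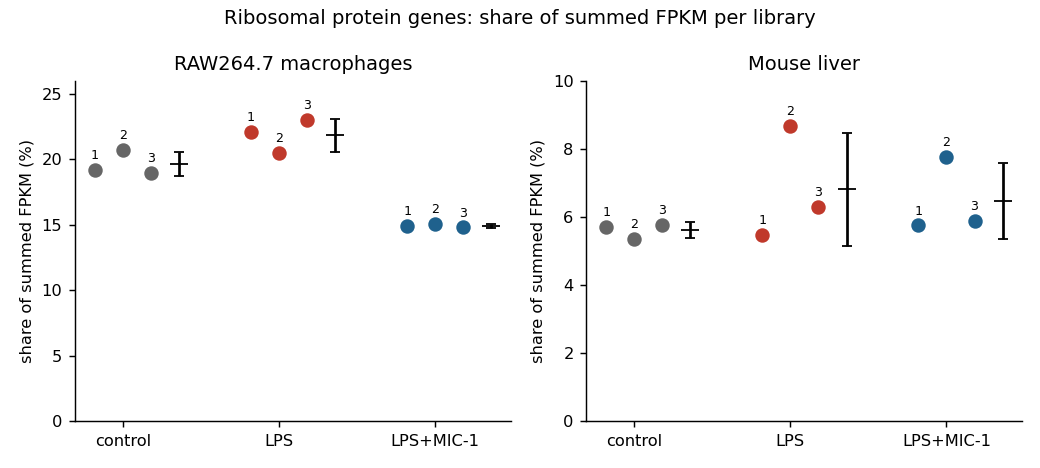
Percent of the summed FPKM of each library that fell on ribosomal protein genes, in RAW264.7 macrophages (left) and liver (right), with 1 point per library and black bars for the mean ± SD of each group of 3. The LPS+MIC-1 macrophage libraries sit between 14.8 and 15.1%, below all other macrophage libraries, and the liver groups overlap.

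The FPKM values of a library did not sum to a common total, and this bears on every fold change below. Macrophage LPS libraries 1 and 3 summed to 1137533 and 1132904 FPKM, against 557136 to 652486 in the other 7 macrophage libraries, and the members alone summed to 251067 and 260195 FPKM there against 96122 to 122897 elsewhere. By the estimate from low values, 1 fragment on 1 kb was worth 0.0793 FPKM in macrophage LPS 1 and 0.0458 in control 1. Their estimated depths were similar, 17600000 and 18200000 fragments, so the scaling of the deposited values did not follow estimated depth alone. In bulk RNA of this kind, fewer cells of a type and less RNA per cell cannot be told apart. The fold changes (Log2FC) use log2(FPKM + 0.5) of the deposited values, which understates the change of low genes. A call is an adjusted p below 0.05 (limma with Benjamini-Hochberg adjustment over all genes tested). The p-values measure the spread between these samples, which may be partly technical for the cultures.

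With all 9 macrophage libraries, LPS against control gave no call for any member, and none among the 9905 genes tested (0.0%), while 69 of the 77 members and 49.8% of all genes had an unadjusted p below 0.05. The members had a median Log2FC of 0.80, against -0.03 for all genes tested, and 73 of 77 were positive, from -0.57 to 1.18. In 32 of 77 the 3 LPS libraries lay above all 3 controls, against 16.1% of all genes. The member-wise shift by library showed where this came from: against the control mean, the median member stood at 1.11 and 1.16 in LPS libraries 1 and 3 and at 0.13 in the library labelled LPS 2, beside 0.14 in control 2.

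Without the library labelled LPS 2, 73 of the 77 members rose and 2 fell, against backgrounds of 36.9% of all genes tested called higher and 38.2% lower. The median Log2FC was 1.13 with -0.02 for all genes. It was 1.13 over the 60S genes (40 rose, 2 fell of 43), 1.05 over the 40S genes (30 of 31 rose) and 1.25 over the 3 stalk genes, which all rose. When each library was instead rescaled to the same FPKM sum, an alternative chosen after seeing the data, the median of all genes was at -0.93, 34 members were called higher and 13 lower, against 11.8% and 71.0% of all genes, and the member median was 0.14. On both scales the member median stood above the median of all genes, but whether a member was above its own control level depended on the scale for many of them.

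Rps27, a 40S protein with a zinc finger, was at 3046, 3543 and 3014 FPKM in controls, 10000, 3845 and 9537 with LPS and 3186, 3161 and 3205 after LPS+MIC-1. LPS libraries 1 and 3 stood far above every other library. Its Log2FC for LPS against control was 1.16 ± 0.35 (SE) with all libraries (limma adjusted p = 0.0777) and 1.61 ± 0.08 without LPS 2 (adjusted p = 2.9e-06). Rpl13a, a 60S protein that can leave the ribosome to silence inflammatory mRNAs, was at 800, 873 and 720 FPKM, then 2559, 949 and 2424, then 802, 829 and 781. It had the highest fold change of the members, 1.18 ± 0.35 with all libraries and 1.65 ± 0.09 without LPS 2, and 34.4% of its 31-base sequence words are shared with other genes. Rpl24, Rpl31 and Rpl39, 3 further 60S genes, followed at 1.14, 1.13 and 1.11, and at 1.63, 1.57 and 1.60 without LPS 2 (adjusted p = 4.74e-06, 5.29e-06 and 1.61e-05). On the deposited scale each of these 5 was back at the control level in the LPS+MIC-1 libraries, with differences from control between -0.03 and 0.02. This depended on the scale. With libraries rescaled to the same sum, all 77 members were negative for LPS+MIC-1 against control, the highest at -0.08.

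The stalk genes encode the lateral arm on the 60S subunit that recruits elongation factors. Rplp0 was at 2100, 2549 and 2084 FPKM in controls, 5552, 2532 and 5794 with LPS and 2067, 2193 and 2035 after LPS+MIC-1. Rplp1 was at 4483, 5122 and 4494, then 10521, 5002 and 11904, then 4194, 4857 and 4101. Rplp2 was at 2286, 2682 and 2202, then 4781, 2499 and 5074, then 2497, 2374 and 2339. For all 3, LPS libraries 1 and 3 stood above the rest and LPS 2 lay inside the control range. Without LPS 2 their Log2FC for LPS against control was 1.34 ± 0.10, 1.25 ± 0.11 and 1.05 ± 0.09. For LPS+MIC-1 against control it was -0.09, -0.10 and 0.01, with no call with or without that library.

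Among the 40S genes, Rps6, the substrate of S6 kinase, was at 1261, 1519 and 1234 FPKM in controls, 3092, 1487 and 3079 with LPS and 1062, 1121 and 1107 after LPS+MIC-1. Rps27a, which encodes ubiquitin fused to a 40S protein, was at 1406, 1544 and 1285, then 3887, 1547 and 4046, then 1238, 1267 and 1246. Rpsa, whose protein is also known as the laminin receptor, was at 1533, 1685 and 1597, then 2801, 1650 and 2861, then 1213, 1449 and 1237. In each of them all LPS+MIC-1 libraries lay below all controls. Rpl5 and Rpl11, the 60S proteins that form a particle with 5S RNA and can bind Mdm2, differed in the last step: Rpl5 overlapped the controls with LPS+MIC-1 (-0.15 ± 0.24), whereas Rpl11 lay below them (-0.41 ± 0.24, limma adjusted p = 0.247 with all libraries and 0.00207 without LPS 2). Without LPS 2 their Log2FC for LPS against control was 1.05 ± 0.08 and 1.09 ± 0.08.

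A small group did not follow the rest in macrophages. Rpl22l1, a paralog of Rpl22 that can replace it in the ribosome (mm9 chr3:28704358-28706274, plus strand), was at 43.4, 34.2 and 28.2 FPKM in controls, 20.1, 34.2 and 18.1 with LPS and 28.5, 37.5 and 39.7 after LPS+MIC-1. LPS libraries 1 and 3 were the lowest of the 9. Its Log2FC for LPS against control was -0.57 ± 0.27 with all libraries (limma adjusted p = 0.117) and -0.85 ± 0.20 without LPS 2 (adjusted p = 0.00508). Its partner Rpl22 moved the other way: it was at 163, 180 and 156 FPKM, then 368, 183 and 365, then 148, 144 and 143, with a Log2FC of 1.14 ± 0.07 without LPS 2. A limit of the Rpl22l1 values is that 63.8% of its sequence words are shared with other genes, chiefly Orc5, which was at 18.1 to 20.3 FPKM in controls and LPS and at 11.2 to 13.9 with LPS+MIC-1.

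Rpl7l1, a paralog of Rpl7 (mm9 chr17:46910856-46919605, minus strand), was at 65.7, 59.96 and 62.4 FPKM in controls, 48.8, 61.3 and 48.4 with LPS and 42.8, 41.5 and 44.8 after LPS+MIC-1. It fell with LPS once LPS 2 was left out (-0.36 ± 0.07, limma adjusted p = 0.00135), and its LPS+MIC-1 libraries lay lower still. Rpl7 itself was at 1455, 1405 and 1443, then 3162, 1337 and 3138, then 1236, 1291 and 1194. Rps19, the 40S protein mutated in Diamond-Blackfan anaemia (mm9 chr7:25669390-25674825, plus strand), was at 20.2, 16.3 and 23.2, then 17.8, 17.8 and 23.4, then 9.79, 6.37 and 7.78. It did not separate LPS from control (-0.01 ± 0.20, and 0.05 ± 0.21 without LPS 2) but was lower in every LPS+MIC-1 library. Rpl30 was likewise near its control level with LPS (-0.09 ± 0.22, and -0.06 ± 0.24 without LPS 2), and Rpl14 had the next smallest difference, 0.33 ± 0.17 (limma adjusted p = 0.150), 0.50 ± 0.08 without LPS 2, and -0.36 when libraries were rescaled to the same sum.

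**Figure D3:**
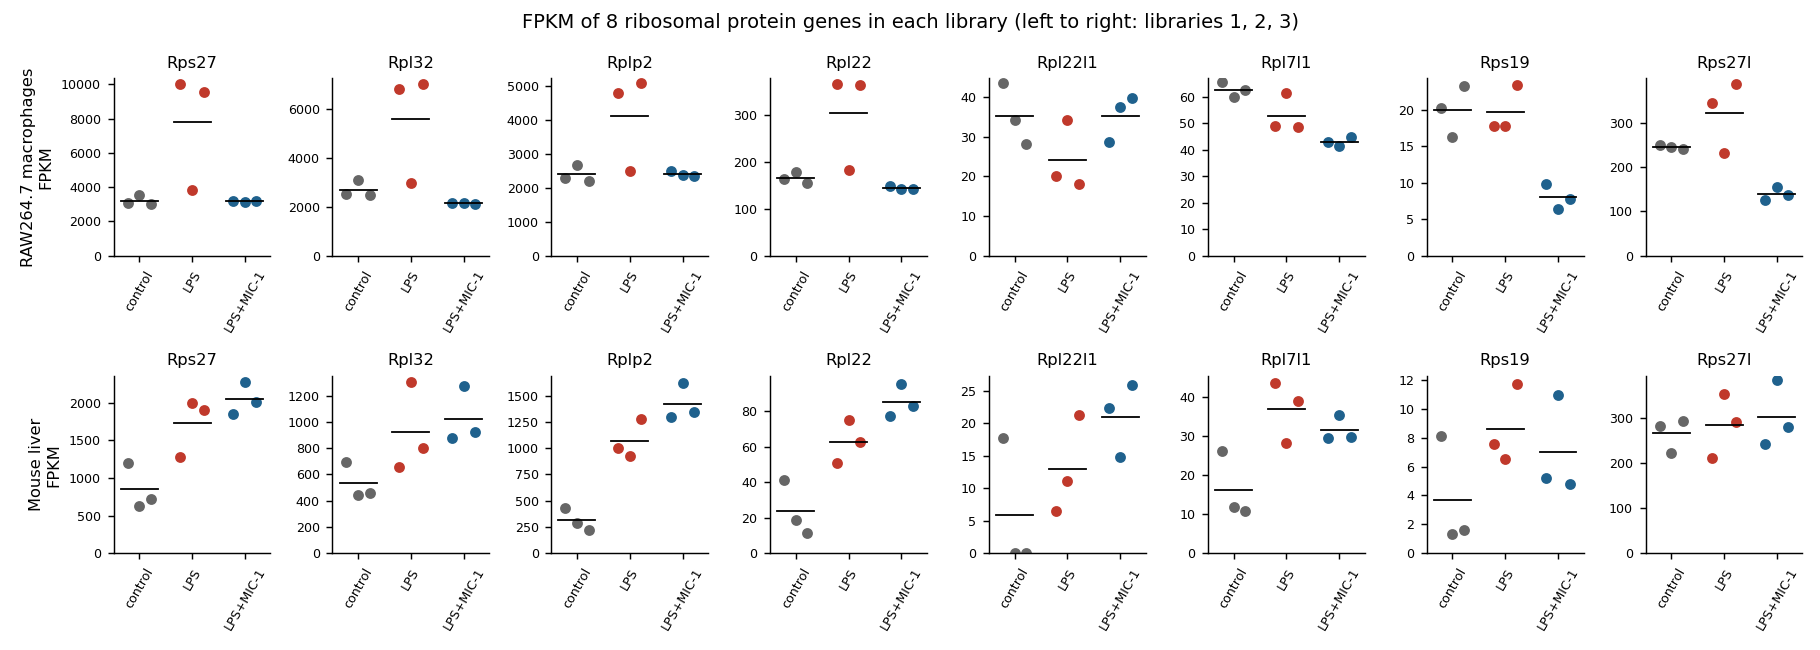
FPKM of 8 ribosomal protein genes in each library of RAW264.7 macrophages and liver by group, with 1 point per library and a black line at the group mean. In macrophages Rps27, Rpl32, Rplp2 and Rpl22 are high in 2 of the 3 LPS libraries, Rpl22l1 and Rpl7l1 are low in the same libraries, and Rps19 and Rps27l are lowest with LPS+MIC-1.

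The second question was whether MIC-1 changed the response to LPS in macrophages. With all 9 libraries 58 of 77 members were lower in LPS+MIC-1 than in LPS and 0 higher, against 11.4% of all genes called lower and 10.2% higher. The median Log2FC was -1.02, against -0.01 for all genes, and in 76 of 77 the LPS+MIC-1 libraries lay below all LPS libraries, against 18.2% of all genes. The 58 held 30 of 43 60S genes, 27 of 31 40S genes and 1 of 3 stalk genes, Rplp0. The count rested on single libraries: it was 5 without LPS 1 and 6 without LPS 3, against 4.7% and 4.98% of all genes called lower, and 3 without LPS+MIC-1 1 or 3, against 3.72% and 3.77%. These counts, 3.9 to 7.79% of the members, were near the background. It was 15 without LPS+MIC-1 2 (6.62% of all genes) and 15, 31 and 17 without control 1, 2 and 3 (6.38, 7.76 and 6.75%). The median stayed between -1.35 and -0.84 throughout. Without the library labelled LPS 2, 76 were lower and 1 higher, against 34.1% and 34.0% of all genes, with a median of -1.35. Rescaled to the same sum, with all libraries, the median of all genes was at 0.44, and 65 members were called lower, against 3.57% of all genes, with a member median of -0.53. Without LPS 2 on that scale 71 were lower and 2 higher, against 10.5% and 67.3% of all genes.

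The lowest fold change was that of Rpl34, a 60S gene, at 44.8, 33.1 and 41.6 FPKM in controls, 74.7, 35.3 and 74.7 with LPS and 20.01, 25.8 and 21.0 after LPS+MIC-1. Its LPS+MIC-1 libraries lay below every other library, with a Log2FC against LPS of -1.38 ± 0.29 (limma adjusted p = 0.0155) and -1.73 ± 0.15 without LPS 2, and 26.8% of its sequence words are shared, mainly with a pseudogene. Rpl32, a 60S gene often used as a reference gene (mm9 chr6:115755523-115758765, minus strand), was at 2540, 3076 and 2471, then 6811, 2965 and 7003, then 2170, 2172 and 2115. Its Log2FC was -1.28 ± 0.32 (limma adjusted p = 0.0293), and -1.68 ± 0.10 without LPS 2. Rps26, a 40S protein near the mRNA exit, was at 3101, 3678 and 3427, then 9118, 3670 and 9599, then 2847, 2879 and 2802, with a Log2FC of -1.27 ± 0.35 (adjusted p = 0.0378). Rpl23a, which lines the exit of the nascent chain tunnel, and Rpl41 followed at -1.27 ± 0.31 and -1.26 ± 0.32 (adjusted p = 0.0260 and 0.0295). In Rpl23a and Rps26, 53.3% and 51.1% of the sequence words are shared with other genes, chiefly Tlcd1 and Med21.

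At the other end, Rpl22l1 had a Log2FC of 0.58 ± 0.27 for LPS+MIC-1 against LPS (limma adjusted p = 0.149) and 0.86 ± 0.20 without LPS 2 (adjusted p = 0.00574), so that it was the 1 member called higher there. Rpl7l1 was at -0.28 ± 0.12 (adjusted p = 0.122), Rpl10a, a 60S protein of the L1 stalk, at -0.66 ± 0.16 (adjusted p = 0.0238), Rpl30 at -0.69 ± 0.22 (adjusted p = 0.0550) and Rplp2 at -0.71 ± 0.27 (adjusted p = 0.0951). Without LPS 2, Rpl7l1, Rpl10a, Rpl30 and Rplp2 were also called lower. On the same-sum scale without that library, Rpl7l1 was at 0.62, Rpl30 at 0.07 and Rpl10a at 0.00, so their direction followed the scaling.

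How many members were lower with LPS+MIC-1 than in the controls depended on the library labelled LPS 2, through the shared spread. With all 9 libraries 4 of 77 (5.19%) were called lower and 0 higher, against 13.0% and 11.8% of all genes, below the background. Without that library the fold changes were the same and 40 (51.9%) were called lower, against 32.2% of all genes. The 4 called with all libraries were Rps19 at -1.27 ± 0.20 (limma adjusted p = 0.00452), Rps27l at -0.82 ± 0.19 (adjusted p = 0.0185), Rpl30 at -0.78 ± 0.22 (adjusted p = 0.0344) and Rpl7l1 at -0.54 ± 0.12 (adjusted p = 0.0163). Rps27l, a paralog of Rps27 (mm9 chr9:66793893-66797323, plus strand), was at 249, 244 and 239 FPKM in controls, 344, 232 and 386 with LPS and 125, 155 and 136 after LPS+MIC-1. Rpl30, whose protein binds its own mRNA in yeast, was at 54.6, 40.03 and 54.6, then 55.4, 44.2 and 40.6, then 22.5, 36.8 and 28.1. In all 4 the LPS+MIC-1 libraries lay below every control, and Rps19, Rpl30 and Rpl7l1 were among the 6 least abundant members of the macrophage controls.

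The median Log2FC of the 77 members for LPS+MIC-1 against control was -0.21, against -0.04 for all genes, and 67 were negative. In 49 the LPS+MIC-1 libraries lay below all controls, against 34.9% of all genes. The lowest were Rps19, then Rps27l and Rpl34, which was at -0.82 ± 0.29 (limma adjusted p = 0.0722), then Rpl30 and Rps21, which was at -0.59 ± 0.22 (adjusted p = 0.0827). The highest were Rps24 at 0.10, Rpl23 at 0.09, Rpl19 at 0.05, Rps15a at 0.03 and Rpl17 at 0.02. With single libraries left out the count was 1 without control 1 or 3 or LPS+MIC-1 1 or 3, against 4.21 to 4.76% of all genes, and rescaling to the same sum gave 46 lower, against 6.79%, with a median of -0.39 beside -0.21 for all genes.

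**Figure D4:**
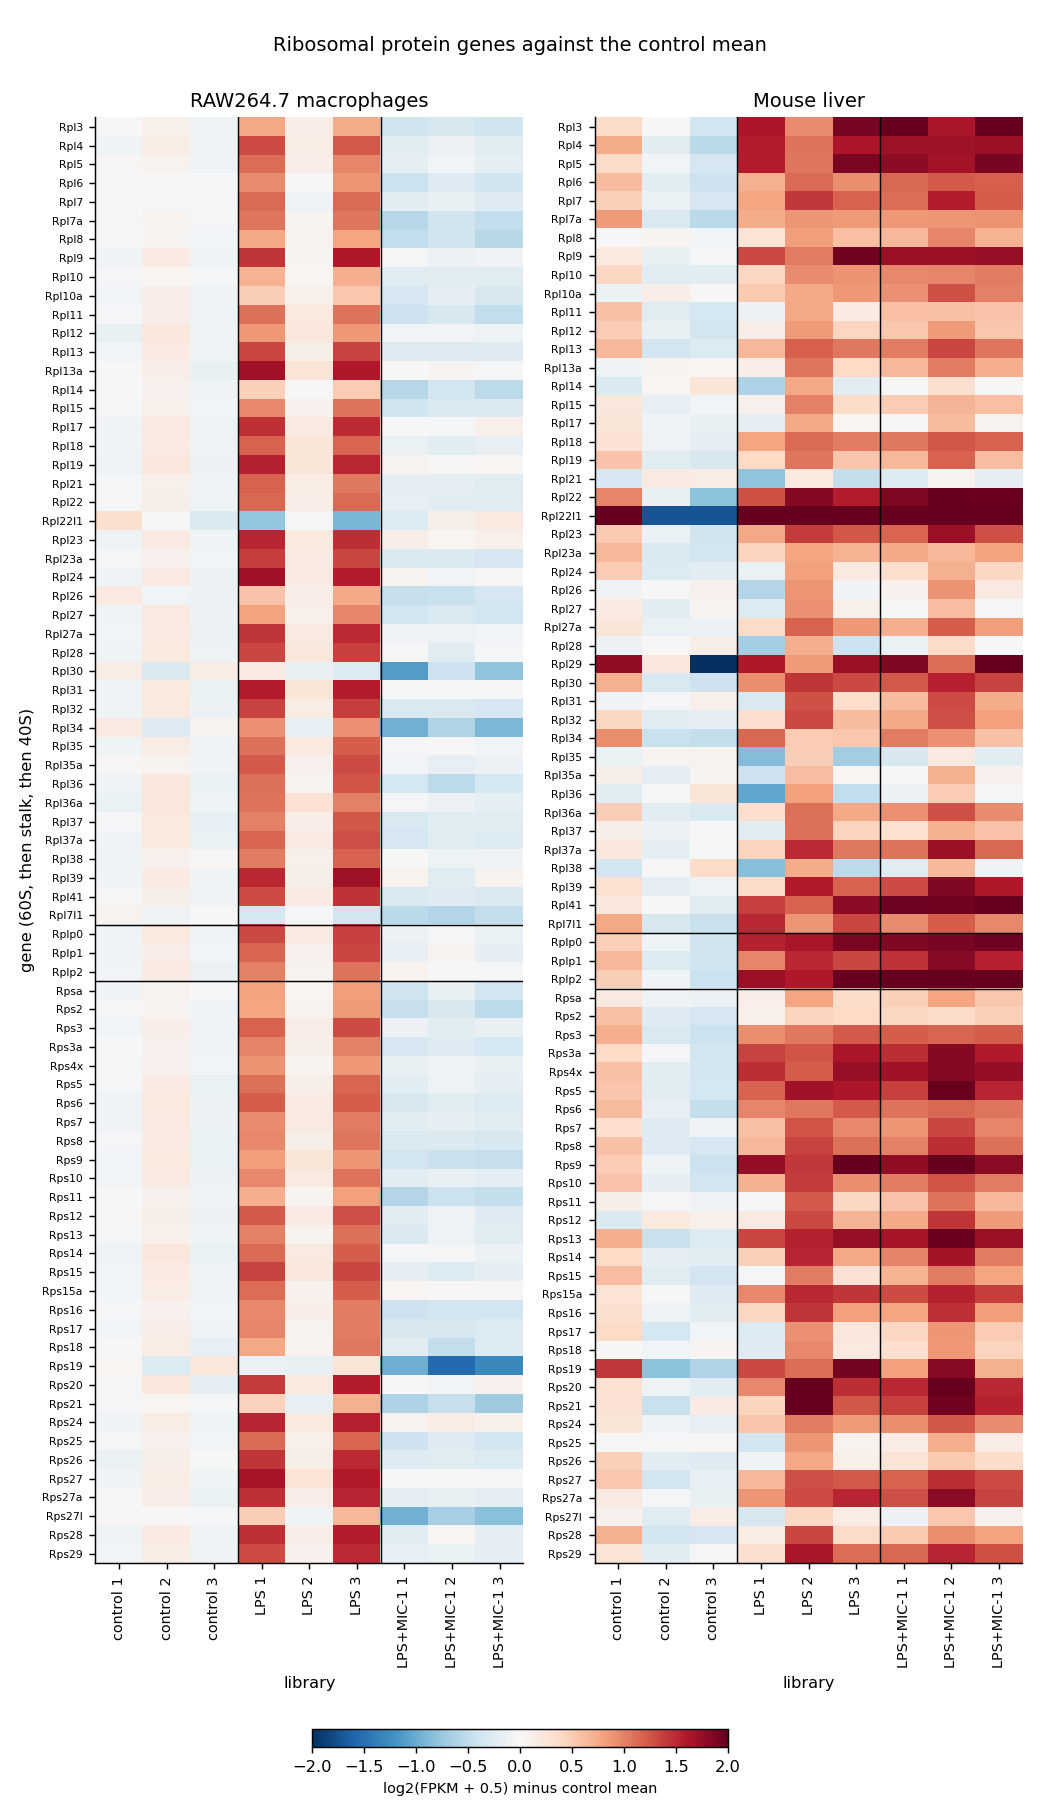
Log2(FPKM + 0.5) of each ribosomal protein gene in each library minus the mean of its controls, with genes in rows ordered by subunit and libraries in columns, the colour limited to ±2. In macrophages LPS libraries 1 and 3 are high for nearly every gene and LPS 2 resembles the controls, whereas in liver all treated libraries are high for many genes and control 1 is higher than controls 2 and 3 for most.

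In liver, LPS raised about as many members as it left without a call. Of 78, 38 rose and 0 fell with LPS against control, against 19.2% of all 10147 genes tested called higher and 15.5% lower. The median Log2FC was 0.86, against 0.15 for all genes, and 72 were positive. In 41 the LPS libraries lay above all controls, against 24.2% of all genes. All 3 stalk genes rose (median 1.69), with 17 of 31 40S genes (median 1.02) and 18 of 44 60S genes (median 0.73). The count was 51 without control 1, 17 and 16 without control 2 and 3, and 15 without LPS 3. The shares of all genes called higher were then 23.6, 10.9, 10.5 and 7.43%. Without LPS 2 it was 28 higher and 2 lower, against 27.5% and 21.5% of all genes. The count was 27 higher and 3 lower, against 28.8% and 22.7%, with a median of 0.71 when library 2 of both treated groups was left out, an alternative chosen after seeing the data. In these fits 35.9% and 34.6% of the members were called higher, closer to the background than with all libraries (48.7%). Rescaled to the same sum, the median of all genes was at -0.18, and 25 members were higher and 0 lower, against 11.0% and 24.4% of all genes, with a member median of 0.49.

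All 3 stalk genes rose, and Rplp2 and Rplp0 had the highest fold changes of them. Rplp2 (mm9 chr7:148633269-148637484, plus strand) was at 428, 290 and 226 FPKM in controls, 998, 924 and 1275 with LPS and 1297, 1616 and 1340 after LPS+MIC-1. The 3 groups did not overlap, and the Log2FC for LPS against control was 1.79 ± 0.27 (limma adjusted p = 0.00346). Rplp0 was at 288, 194 and 157, then 602, 640 and 763, then 744, 772 and 794, with a Log2FC of 1.69 ± 0.24 (adjusted p = 0.00310). Rplp1 was at 1934, 1011 and 919, then 2391, 3461 and 3079, then 3301, 4274 and 3557, with a Log2FC of 1.27 ± 0.32 (adjusted p = 0.0179). In each, both treated groups lay above every control, and control 1 was the highest control.

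Of the 40S genes, Rps9, a protein of early small subunit assembly, was at 365, 241 and 190 FPKM in controls, 864, 681 and 1108 with LPS and 873, 1209 and 898 after LPS+MIC-1, with a Log2FC for LPS of 1.76 ± 0.30 (limma adjusted p = 0.00528). Rps6 was at 431, 249 and 199, then 549, 579 and 653, then 591, 617 and 583, with a Log2FC of 1.09 ± 0.28 (adjusted p = 0.0190). Rps27a (1.24 ± 0.24), Rps4x, the X-linked 40S gene (1.47 ± 0.27), and Rps27 (1.05 ± 0.30) also rose. Rpsa was at 628, 527 and 509, then 604, 959 and 710, and its LPS libraries overlapped the controls (0.43 ± 0.23, adjusted p = 0.164). Rps27l overlapped in all groups, at 282, 223 and 294, then 212, 354 and 292, then 243, 385 and 282.

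Of the 60S genes, Rpl22 (mm9 chr4:151699851-151708180, plus strand) was at 41.4, 18.6 and 11.5 FPKM in controls, 50.9, 74.99 and 62.3 with LPS and 77.1, 95.4 and 82.9 after LPS+MIC-1, with a Log2FC for LPS of 1.56 ± 0.40 (limma adjusted p = 0.0206). Rpl22l1 was listed at 0 in controls 2 and 3 and at 17.7 in control 1, at 6.45, 11.2 and 21.2 with LPS and at 22.3, 14.8 and 25.9 after LPS+MIC-1. Its Log2FC of 2.87 ± 1.24 (adjusted p = 0.101) was the highest of the members and depends on the pseudocount. Rpl5 rose (1.51 ± 0.26, adjusted p = 0.00547) from 77.9, 57.2 and 47.0 to 178, 125 and 220, while Rpl11 was at 391, 222 and 206 and then 241, 445 and 293 and overlapped (0.27 ± 0.31, adjusted p = 0.505). Rpl3, an early-assembling core protein, rose by 1.49 ± 0.31 and Rpl41 by 1.45 ± 0.23. Rpl7l1 (1.25 ± 0.33, adjusted p = 0.0213) and Rpl30 (1.23 ± 0.32, adjusted p = 0.0196) rose in liver as well.

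The lowest fold changes for LPS in liver were those of Rpl21 and of 4 of the most abundant members, Rpl35, Rpl36, Rpl38 and Rpl28. Rpl35, of whose sequence words 66.6% are shared with other genes, chiefly Wdr38, was at 1720, 1969 and 1993 FPKM in controls and at 1037, 2667 and 1163 with LPS. Rpl36 was at 1018, 1182 and 1415 and then at 581, 2102 and 851. Rpl38, a 60S protein tied to selective translation of Hox mRNAs, was at 1382, 1805 and 2310 and then at 993, 3003 and 1251. In these genes LPS 1 and 3 lay below every control and LPS 2 lay above every control. The Log2FC was -0.36 for both Rpl21 and Rpl35, -0.24 for Rpl36, -0.21 for Rpl38 and -0.12 for Rpl28, none of them called with all libraries. Without LPS 2, 2 members were called lower than control. When library 2 of both treated groups was left out, 3 members were called lower, all of the 60S. The lowest 60S Log2FC was then -0.78.

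Library 2 differed within the liver groups in a way that ran across the members. Against the mean of libraries 1 and 3 of its own group, the median member stood 0.50 higher (log2) in LPS 2 and 0.30 higher in LPS+MIC-1 2, and 0.24 lower in control 2. The difference was 1.58 for Rpl36 and 1.43 for Rpl38 in LPS 2, and -0.81 for Rpl3 and -0.66 for Rpl5. Over the members its Spearman correlation with coding length was -0.49 in LPS and -0.38 in LPS+MIC-1 (77 genes), and 0.63 between these groups over 78 genes, all as descriptions. Control 1 differed from the other controls, with a median member 0.40 above the control mean beside -0.16 and -0.23, and it had an estimated depth of 8980000 fragments beside 3940000 and 3860000. The part of depth or library in the liver calls was not tested, and no batch is given in the labels.

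LPS+MIC-1 against LPS gave no call in liver for any member or for any of the 10147 genes (0.0%), with 1 of 78 members and 3.59% of all genes at an unadjusted p below 0.05. The median Log2FC was 0.22, against -0.01 for all genes, and 75 of 78 were positive. Leaving out single libraries moved the median between 0.01, without LPS 1, and 0.36, and rescaling to the same sum turned it to -0.07, with the median of all genes at -0.26. In 7 members the LPS+MIC-1 libraries lay above all LPS libraries (Rpl10, Rpl10a, Rpl22, Rpl4, Rpl41, Rpl6 and Rplp2), against 5.1% of all genes, and in 0 they lay below, against 4.64%. The highest fold changes were those of Rpl22l1 (0.79 ± 1.24), Rpl41 (0.54 ± 0.23), Rpl39 (0.53), Rpl3 (0.46) and Rpl31 (0.45), and the lowest those of Rps19 (-0.33), Rpl7l1 (-0.20), Rpl27 (-0.05), Rps6 (0.01) and Rpl17 (0.03). Rpl41 was at 2104, 1857 and 2821 FPKM with LPS and 3132, 3124 and 3498 after LPS+MIC-1, and at 958, 823 and 690 in controls. On the deposited scale this median was positive in liver and negative in macrophages (-1.02), whereas on the same-sum scale both were negative (-0.07 and -0.53). The difference between the tables was not tested.

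LPS+MIC-1 against control in liver gave the widest rise of the 6 comparisons with all libraries. Of 78, 46 rose and 0 fell, against 20.1% of all genes called higher and 16.3% lower, with a median of 1.04 against 0.15 for all genes. In 57 the LPS+MIC-1 libraries lay above all controls, against 30.5% of all genes. The 46 held 23 of 44 60S genes, 20 of 31 40S genes and the 3 stalk genes. Rplp2 had a Log2FC of 2.21 ± 0.27 (limma adjusted p = 0.00151), Rpl22 of 2.01 ± 0.40 (adjusted p = 0.00775), Rpl41 of 1.99 ± 0.23 (adjusted p = 0.00133) and Rpl3 of 1.95 ± 0.31 (adjusted p = 0.00335). Rpl22l1, at 3.66 ± 1.24 (adjusted p = 0.0484), overlapped its control 1. Rpl21 (-0.13), Rpl35 (-0.12), Rpl28 (0.08), Rpl38 (0.11) and Rpl14 (0.11) were lowest. The count was 26 without control 2 and 29 without control 3 or LPS+MIC-1 3, against 12.1, 12.2 and 11.0% of all genes. It was 23 after rescaling to the same sum, against 7.22%, with a member median of 0.40 and the median of all genes at -0.43. This comparison shares its controls with that of LPS, so the 2 sets of values are not independent.

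**Figure D5:**
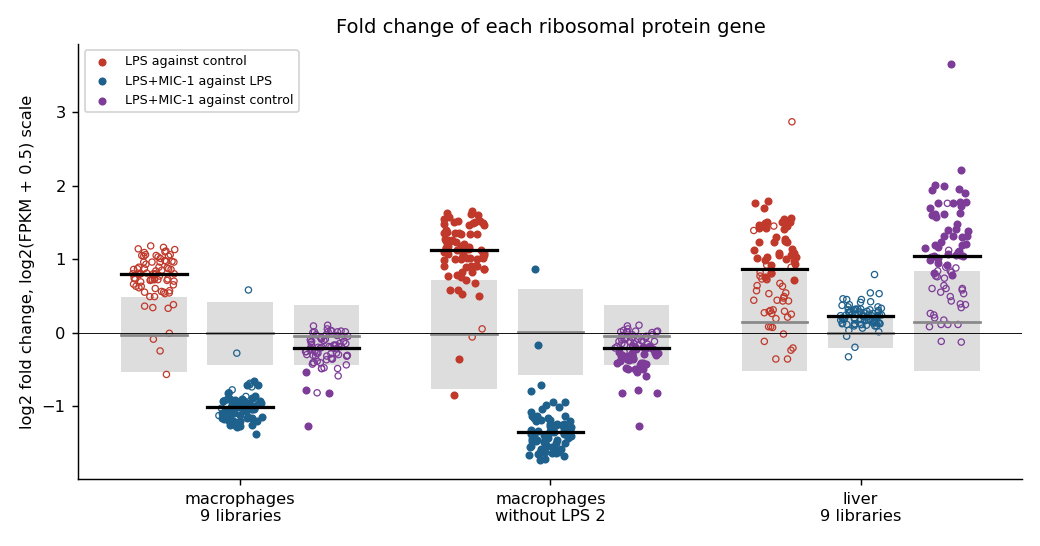
Log2FC of each ribosomal protein gene in the comparisons of macrophages (9 libraries), macrophages without the library labelled LPS 2, and liver, with 1 point per gene, filled where the adjusted p was below 0.05, a black line at the member median, and a grey box and line for the quartiles and median of all genes tested. The member medians are 1.13 for LPS and -1.35 for LPS+MIC-1 against LPS in macrophages without LPS 2, and 0.86, 0.22 and 1.04 in the liver comparisons.

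At an adjusted p below 0.01 with an absolute Log2FC above 1, the limma calls were 0 of the members for LPS against control in macrophages (0.0% of all genes), 2 for LPS+MIC-1 against LPS (3.87%) and 1, Rps19, for LPS+MIC-1 against control (5.59%). In liver they were 13 for LPS (10.9%), 0 for LPS+MIC-1 against LPS and 23 for LPS+MIC-1 against control (13.5%), and these shares of the members were above the background in the 2 liver comparisons with control.

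Over all genes, length moved with these fold changes. The members are short, with a median coding length of 471 bases, and 59 in macrophages and 60 in liver lay in the shortest of 5 equal bins of genes by coding length. In macrophages with all libraries the shortest bin had a median Log2FC of 0.23 for LPS against control and the longest -0.13. In liver these medians were 0.43 and -0.16 for LPS and 0.56 and -0.22 for LPS+MIC-1 against control. With the length trend of all genes taken out, the member medians were 0.53, -0.81 and -0.27 in macrophages and 0.57, 0.14 and 0.73 in liver. Within the members the Spearman correlation of Log2FC with coding length was -0.20, 0.12 and -0.17 in macrophages (76 genes) and 0.18, -0.24 and 0.11 in liver (77 genes), so that against control the sign in liver was opposite to that over the bins. With that trend taken out the counts were 60 lower for LPS+MIC-1 against LPS in macrophages, against 10.9% of all genes, and 32 and 37 higher for LPS and LPS+MIC-1 against control in liver, against 19.7% and 20.1%. The part of transcript length in these results was not tested further.

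The members were also divided by the letters of their start regions. Without the library labelled LPS 2, the 13 members with a TOP-like run had a median Log2FC of 1.10 for LPS against control in macrophages and the 45 without it 1.12. In liver the medians were 0.49 and 0.81 for LPS against control. The 24 members with CCGGAAG were at 0.46 in liver and the 34 without at 0.98, and at 1.07 and 1.17 in macrophages. The 10 members with AAGATGG were at 0.91 in liver and the 48 without at 0.74, and at 1.15 and 1.10 in macrophages. For LPS against control the macrophage medians thus lay close together. In liver the members with a TOP-like run or CCGGAAG had the lower median, and those with AAGATGG the higher. For LPS+MIC-1 against LPS in macrophages the medians were -1.21 with a TOP-like run and -1.41 without it. These are descriptions, with no test.

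Other genes of the translation machinery were taken from fixed lists. Fau, a ubiquitin-like fusion with a 40S protein, had a Log2FC of 1.57 ± 0.09 for LPS in macrophages without LPS 2 and of -1.44 ± 0.09 for LPS+MIC-1 against LPS. Gnb2l1, which encodes the 40S scaffold RACK1, had values of 0.85 ± 0.08 and -1.12 ± 0.08. Both rose with LPS in liver, Fau by 0.78 ± 0.24 and Gnb2l1 by 1.17 ± 0.23. Of 17 elongation factor and other TOP mRNA genes, 14 rose and 1 fell with LPS in macrophages without LPS 2 (median 0.78), against 36.9% and 38.2% of all genes. There 17 were lower with LPS+MIC-1 than with LPS, against 34.1% (12 with all libraries, against 11.4%), and 10 rose with LPS in liver (median 1.11), against 19.2%. On the same-sum scale without LPS 2 the macrophage LPS median of this list was -0.21, with 3 higher and 9 lower, against 11.8% and 71.0% of all genes, so its direction there followed the scaling. Eef2, which moves the ribosome along the mRNA, was at 1209, 1314 and 1211 FPKM in macrophage controls, 2497, 1297 and 2449 with LPS and 1070, 1141 and 1069 after LPS+MIC-1. Eef2 rose in liver too, by 1.71 ± 0.38 (limma adjusted p = 0.0124).

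The 49 ribosome biogenesis genes, for nucleolar factors that process ribosomal RNA, went the other way in macrophages. Their median Log2FC for LPS against control was -0.82 with all libraries, with 0 called, and -1.13 without LPS 2, with 38 lower and 5 higher, against 38.2% and 36.9% of all genes, and on the same-sum scale without LPS 2 it was -2.08, with 46 lower and 1 higher, against 71.0% and 11.8%. Ncl, which encodes nucleolin, was at 195, 165 and 200 FPKM in controls, 68.6, 158 and 66.0 with LPS and 82.3, 134 and 81.3 after LPS+MIC-1. LPS libraries 1 and 3 were the lowest of the 9. Nop56, a core protein of the particles that methylate ribosomal RNA, had a Log2FC of -1.54 ± 0.08 without LPS 2. With LPS+MIC-1 against LPS, 32 of the 49 were higher and 11 lower without LPS 2 (34.0% and 34.1% of all genes), but 1 and 5 with all libraries (10.2% and 11.4%). In liver 8 of 48 rose and 2 fell with LPS (median 0.38), below the shares of all genes called (19.2% and 15.5%), and with LPS+MIC-1 against control 10 rose and 7 fell, beside 20.1% and 16.3% of all genes, among them Nop56 at -1.37 ± 0.28 (limma adjusted p = 0.0077). On the same-sum scale the liver LPS counts were 4 higher and 3 lower (median 0.05), against 11.0% and 24.4% of all genes. For LPS+MIC-1 against control 0 were then higher and 18 lower, against 7.22% and 33.9%. The list median was -0.46 and that of all genes -0.43, so the direction followed the scaling.

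The remaining lists are given on the deposited scale. On the same-sum scale without LPS 2 each of their macrophage medians for LPS against control was negative. The median of all genes was -0.93 there, with 11.8% called higher and 71.0% lower, so a negative median is not particular to these lists. Beside their counts stand 36.9% of all genes called higher and 38.2% lower for LPS in macrophages without LPS 2, and 19.2% and 15.5% in liver (11.0% and 24.4% on the same-sum scale). Of 29 initiation factor genes, 11 rose and 15 fell with LPS in macrophages without LPS 2, and 15 rose and 5 fell in liver. Of 71 mitochondrial ribosomal protein genes, which belong to a separate ribosome, 27 rose and 25 fell in macrophages without LPS 2 (median -0.04), near those shares, and 19 rose and 3 fell in liver (median 0.38, with 11 and 11 on the same-sum scale). Of 21 genes of mTORC1, S6 kinase and Myc control, 8 rose and 6 fell in macrophages without LPS 2, with Myc, a transcription factor of ribosome genes, at 3.27. Of 70 respiratory chain genes, also short and abundant, 48 rose and 6 fell there (median 0.46, and -0.53 on the same-sum scale), and 9 rose and 6 fell in liver (3 and 21 on the same-sum scale). Of 38 proteasome genes, 12 rose and 12 fell there, and 23 rose and 3 fell in liver (median 0.86). Of 12 genes for dedicated chaperones and import factors of ribosomal proteins, 0 rose and 8 fell there, and 1 rose in liver. In none of these lists was a gene called in liver for LPS+MIC-1 against LPS, a comparison in which none of the 10147 genes tested was called. The 8 snoRNA host genes had 2 higher and 2 lower in macrophages without LPS 2 and 3 higher and 1 lower in liver, and the 9 ribosome quality control genes had 3 and 3 in macrophages and none in liver.

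Markers of some other cells moved with treatment in liver. The 7 neutrophil markers summed to 2.81 to 10.9 FPKM in controls, 339 to 440 with LPS and 185 to 449 after LPS+MIC-1. The 5 macrophage markers summed to 28.6 to 43.2, then 127 to 625, then 127 to 436, and Kupffer cell markers to 26.7 to 47.7, then 13.5 to 14.2, then 12.5 to 20.4. T and B cell markers fell from 5.95 to 6.78 in controls to between 1.24 and 4.11 in the treated groups. Of these 7 markers, 4 were below 1 FPKM in controls, 7 with LPS and 6 after LPS+MIC-1. Endothelial markers overlapped in all groups, at 11.2 to 12.9, then 11.6 to 13.2, then 11.0 to 15.2. Erythroid markers summed to 1070 to 1850, then 745 to 1080, then 719 to 998. The acute-phase gene Saa3 rose from between 52.9 and 4075 FPKM in controls to between 24438 and 58840 in treated livers. The part of immune cells in the liver rise of ribosomal protein genes was not tested. In the macrophage table neutrophil markers summed to 653 to 720 FPKM with LPS+MIC-1, against at most 39.9 in the other groups, with 6 of the 7 below 1 and the sum carried by S100a8.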

How the data were processed

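RNA of 9 RAW264.7 macrophage and 9 mouse liver libraries was sequenced. Per the submitters' processing notes the authors used kallisto 0.45.0, DESeq2 1.20.0 and the mm9 build. The deposited FPKM tables, 1 for each source and normalized by the authors, were used as given. Files of the authors' own DESeq2 comparisons (mean normalized count, log2 fold change, standard error, Wald statistic, p-value and adjusted p) were not used. The authors' own macrophage comparisons used fewer LPS libraries than the table holds.

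Genes with a mean FPKM above 1 (9905 in macrophages, 10147 in liver) entered limma 3.58.1 (R 4.3.3) on log2(FPKM + 0.5), fitting the 3 groups of each source together, with p-values adjusted by Benjamini-Hochberg over these genes. The test was first run on simulated data. With 3 libraries per group, the spread is pooled over groups. FPKM hold no counts, so depth was only estimated from the steps between low values, of which 78.0% in macrophages and 63.1% in liver lay within 0.05 of whole multiples, and no counting interval is given. Coordinates are mm9 (GENCODE annotation), and start regions are from RefSeq (GRCm38.p6). Shares of sequence words compare each gene's annotated transcripts with all others, in words of 31 bases. Tables were made with Python 3.11.15, pandas 2.3.3, numpy 2.4.6, scipy 1.17.1 and matplotlib 3.10.9.

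Named genes were, in each comparison, the 5 with the highest and the 5 with the lowest Log2FC, the 5 highest and lowest by mean FPKM, the stalk genes, Rpsa, Rps27a, Rps6, Rpl5, Rpl11, paralog-type genes with their partners, and any gene called against the direction of most. In the liver fits without library 2, genes called against that direction were only counted. Other named genes were chosen after their values were seen. The members and lists were chosen with earlier results of these data known. Alternatives were another pseudocount, no filter, a stricter threshold, a common FPKM sum, 2-group fits, a length correction, averaging of the closest libraries and leaving out each library. Results of some genes and of 2 of the lists are not reported here.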

Additional observations from a re-analysis of the deposited data

Results flagged for a closer look

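On the deposited scale, some ribosomal protein genes lay wholly lower in macrophages and wholly higher in liver in the same comparison. Their libraries then did not overlap in either table. Overlap was not examined on the same-sum scale. The difference between macrophages and liver was not tested, because the tables were normalized separately. For LPS+MIC-1 against LPS this held for 7 of the 77 genes in both tables, against 1.73% of the 8172 genes tested in both, of which 5 are named here. The 7 are the same members that lay wholly higher in liver, since 76 of 77 lay wholly lower in macrophages. The joint count thus adds nothing to the counts of each table. Rpl10 had a Log2FC of -0.72 in macrophages and 0.24 in liver, and Rpl10a of -0.66 and 0.35. Rpl22 had -1.0 and 0.45, Rpl41 had -1.26 and 0.54, and Rplp2 had -0.71 and 0.42, in the same order. In liver none of these differences was called. The liver LPS+MIC-1 libraries summed to 1000904 to 1063784 FPKM and the LPS libraries to 783886 to 887241. On the same-sum scale the member median of this comparison was negative in both tables (-0.53 in macrophages and -0.07 in liver).

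For LPS+MIC-1 against control the same was true of 37 of the 77 genes, against 12.0% of all genes tested in both, of which 12 are named here with the macrophage value first. The joint count depends on those of each table, 49 of 77 wholly lower in macrophages and 57 of 78 wholly higher in liver. Whether it goes beyond what these 2 counts give together was not tested. Rpl22 was at -0.20 and 2.01, Rpl3 at -0.37 and 1.95, Rpl41 at -0.29 and 1.99, and Rps4x at -0.13 and 1.76. Rps21 was at -0.59 and 1.61, Rps27a at -0.17 and 1.48, Rpl30 at -0.78 and 1.38, and Rpl7 at -0.21 and 1.30. Rps6 was at -0.28 and 1.10, Rpl7l1 at -0.54 and 1.04, Rpl10 at -0.23 and 0.99, and Rpsa at -0.31 and 0.60. With all macrophage libraries only Rpl30 and Rpl7l1 of the 12 were called lower there. Of all members 5.19% were called lower in that fit, against 13.0% of all genes. On the same-sum scale the member medians of this comparison were -0.39 in macrophages and 0.40 in liver. For LPS against control 0 of the 77 genes showed this pattern, against 3.79%.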

How the results depend on the processing

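No paired analysis was possible because the table columns carry no replicate numbers. With the stricter threshold (adjusted p below 0.01 and absolute Log2FC above 1) the counts of ribosomal protein genes called were 2 for LPS+MIC-1 against LPS and 1 against control in macrophages, and 13 for LPS and 23 for LPS+MIC-1 against control in liver. In parentheses stands the share of all genes called in either direction. Without a filter on low values the macrophage LPS+MIC-1 against LPS count was 21 (11.9%). Rescaled to the same sum, the medians were 0.11 and -0.53 for LPS against control and LPS+MIC-1 against LPS in macrophages, the macrophage LPS+MIC-1 against control count was 46 (14.3%), and in liver the counts were 25 and 23 against control (35.4% and 41.2%) with medians of 0.49 and 0.40, while the LPS+MIC-1 against LPS median reversed to -0.07. Fitting 2 groups at a time, the counts were 2 and 37 for LPS+MIC-1 against LPS and against control in macrophages (5.59% and 58.2%) and 18 for LPS in liver (23.2%). With the length trend taken out, 9 were called for LPS+MIC-1 against control in macrophages (27.0%), and the liver medians were 0.57 and 0.73 against control. With the closest libraries of each group averaged into 1, which leaves fewer samples, the counts were 0 for LPS+MIC-1 against LPS and against control in macrophages and for both treatments against control in liver (0.0 to 1.58%). Of alternatives chosen after seeing the data, the same sum without the macrophage library labelled LPS 2 gave 47 calls (82.8%) and a median of 0.14 for LPS against control, a median of -0.55 for LPS+MIC-1 against LPS and 68 calls against control (63.0%), and the length trend taken out without that library gave 70 and 51 calls for LPS and LPS+MIC-1 against control (75.9% and 62.3%). Leaving out 1 library at a time, the counts ran from 0 to 75, 3 to 77 and 1 to 40 in the macrophage comparisons (LPS against control 0.0 to 75.2%, LPS+MIC-1 against LPS 7.4 to 68.0%, LPS+MIC-1 against control 8.99 to 60.3%), and from 15 to 51 and 26 to 56 for LPS and LPS+MIC-1 against control in liver (13.8 to 49.0% and 20.1 to 45.2%). Leaving out the 50 most abundant other genes raised the shares of summed FPKM to 24.5, 31.4 and 21.2% in macrophage control, LPS and LPS+MIC-1 and to 10.4, 14.8 and 15.4% in liver. Many members changed sign on the same-sum scale with all libraries. In liver the positive members went from 72 to 60 of 78 for LPS against control. They went from 75 to 22 for LPS+MIC-1 against LPS and from 76 to 56 against control. In macrophages they went from 73 to 55 of 77 for LPS against control and from 10 to 0 for LPS+MIC-1 against control. Among the members with the highest or lowest Log2FC, those that reversed included Rpl14 for LPS in macrophages (-0.36, and -0.49 without LPS 2). For LPS+MIC-1 against LPS they included Rpl7l1 (0.20, and 0.62), Rpl10a (0.00) and Rpl30 (0.07) without LPS 2, and Rps6 in liver (-0.28). For LPS+MIC-1 against control in liver they included Rpl28 (-0.58), Rpl38 (-0.55) and Rpl14 (-0.54). Rpl28 also reversed with the length trend taken out (-0.32) and Rpl27 for LPS+MIC-1 against LPS in liver with single libraries left out (-0.31 to 0.28, the latter without LPS 2). A tally under alternatives was made only for 60 main gene values, those of the members with the highest or lowest Log2FC in each comparison. Of these values under alternatives, 942 kept direction and call, 52 gained a call, 100 lost it and 12 reversed. The tally leaves out the other members, so it does not measure how stable direction was over all members. Their sign changes on the same-sum scale are in the counts of positive members above. Except where the number of samples explains a lost call, the cause was not tested. Groups of 3 libraries, separately normalized tables, liver controls of lower estimated depth and sequence words shared between genes limit all of these values.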
